A study of Mus musculus with 12 samples.

Results

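Proliferation genes were followed as a fixed list of 40 genes that cells read out when they copy DNA and divide. All 40 were found among the 16094 named genes of the expression table, and by role they comprise 15 genes of DNA replication and nucleotide supply, 20 genes of mitosis and 5 genes of chromatin and tubulin that are also read outside the cycle. The table holds 22285 spleen cells from 4 male mice, sequenced by droplet single-cell RNA-seq after magnetic enrichment for CD45, which marks white blood cells. Both WT mice are C57BL/6, and both SLE.yaa mice are B6.Sle1yaa, a lupus-prone strain that carries the Sle1 interval of chromosome 1 together with Yaa, a piece of the X chromosome holding Tlr7 that was moved onto the Y chromosome. No treatment or time course is given in the labels. They file the strains under a chimera condition without saying whether the mice were chimeras, and the deposited age is 14.4 for the WT mice and 14.9 for the SLE.yaa mice, with no unit. Age and strain therefore cannot be told apart. The mice supplied 5497 and 5697 cells (WT 1 and WT 2) and 4961 and 6130 cells (SLE.yaa 1 and SLE.yaa 2), each cell with 1002 to 26847 transcript molecules counted by unique molecular identifiers (UMIs). The median per cell was 3467 and 3670 UMIs in the WT mice and 4695 and 4050 in the SLE.yaa mice. Of 22029 distinct cell barcodes, 254 occurred in more than 1 library. Throughout, 4 values are given in the order WT 1, WT 2, SLE.yaa 1, SLE.yaa 2.

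A dividing cell passes from G1, in which it decides whether to divide, into S phase, in which DNA is copied, and then through G2 into mitosis. The replication genes are switched on by E2F factors at the border of G1 and S. The mitosis genes are switched on later, by MuvB complexes that read CHR elements and by NF-Y that reads CCAAT boxes. In the spleen, lymphocytes divide after they meet antigen, newly made plasma cells come from dividing precursors, and mature neutrophils no longer divide.

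The promoters of 4 members on which the results turn are printed to show the letters that the mitosis and replication genes carry. Each sequence gives the 200 bases before the annotated start, on the strand of the gene, from RefSeq (GRCm38.p6). Capitals mark matches, on either strand, to CCAAT, to CHR (TTTGAA or TTCGAA) or to E2F letters (TTTCCCGC, TTTGGCGC, TTTCGCGC or TTTGCCGC). Mki67 encodes the Ki-67 protein that coats mitotic chromosomes (chr7:135716380-135716579, minus strand). Top2a encodes the topoisomerase that untangles sister chromatids (chr11:99024190-99024389, minus strand). Mcm6 (chr1:128359706-128359905, minus strand) and Mcm5 (chr8:75109309-75109508, plus strand) encode subunits of the helicase that opens DNA for copying.
Mki67: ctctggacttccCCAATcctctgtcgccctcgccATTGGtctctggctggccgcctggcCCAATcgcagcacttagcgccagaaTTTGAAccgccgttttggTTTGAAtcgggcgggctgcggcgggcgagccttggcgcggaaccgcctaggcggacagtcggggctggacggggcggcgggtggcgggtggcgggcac
Top2a: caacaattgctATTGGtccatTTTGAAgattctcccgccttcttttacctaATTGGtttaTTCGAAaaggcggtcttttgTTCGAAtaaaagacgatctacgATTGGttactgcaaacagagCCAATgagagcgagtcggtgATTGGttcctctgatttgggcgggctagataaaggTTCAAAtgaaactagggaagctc
Mcm6: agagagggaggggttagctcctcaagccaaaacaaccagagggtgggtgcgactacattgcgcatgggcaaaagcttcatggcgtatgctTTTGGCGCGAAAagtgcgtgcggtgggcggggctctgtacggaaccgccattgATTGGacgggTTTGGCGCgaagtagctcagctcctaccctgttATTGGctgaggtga
Mcm5: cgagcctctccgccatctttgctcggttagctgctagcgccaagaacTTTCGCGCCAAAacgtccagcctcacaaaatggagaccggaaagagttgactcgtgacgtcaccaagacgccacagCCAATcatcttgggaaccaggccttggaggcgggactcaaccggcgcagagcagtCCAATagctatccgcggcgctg
The Mki67 stretch holds 3 CCAAT and 2 CHR matches, and that of Top2a holds 5 and 4. The Mcm6 stretch holds 2 CCAAT matches and 3 E2F matches, of which a pair overlaps, and no CHR match.

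Promoter windows of 300 bases (250 before and 50 after the start) were found for 34 of the 40 members. A CHR match stood in 13 of 17 mitosis members (76.5%), in 2 of 13 replication members (15.4%) and in 21.7% of the windows of all 27018 genes. E2F letters stood in 6 of 13 replication members (46.2%), in 1 of 17 mitosis members (5.88%) and in 2.61% of all windows. CCAAT stood in 15 of 17 mitosis members (88.2%), in 9 of 13 replication members (69.2%) and in 41.1% of all windows. All 13 mitosis members with a CHR match also held CCAAT, a pairing found in 8.61% of all windows. The motifs were matched as letters only, and CHR and E2F matches can overlap other motifs.

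Over all cells, Mki67 and Top2a were the 2 members that rose in SLE.yaa mice, and no replication, chromatin or tubulin gene passed the test. Levels are mean deposited expression per mouse, scaled to a sum of 1000000 (parts per 1000000, ppm), and changes are differences of log2(value + 10) from limma, which understates the change of low genes. Genes were tested from 10 ppm in at least 2 mice, and p-values were adjusted by the Benjamini-Hochberg method over all genes tested. At an adjusted p under 0.05, 671 of 8544 genes changed (7.85%), with 6% higher (513 genes) and 1.85% lower (158) in SLE.yaa mice. Without scaling between mice the split was 1467 higher and 72 lower, with the median of all genes at 0.16, so the changes given are relative to the median of all genes. Of the 40 members, 17 could be tested, 2 rose and none fell by this test, and 4 had an unadjusted p under 0.05. Their median change was −0.16, against −0.02 over all genes tested. In such means, more cells that read a gene and more RNA per cell cannot be told apart.

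Mki67 stood at 2.77, 2.86, 17.2 and 17.9 ppm, so that both SLE.yaa mice lay far above both WT mice. Its change was 1.10 (SE 0.09, limma adjusted p = 0.0020). Top2a stood at 5.33, 3.09, 11.5 and 13.2 ppm, with no overlap between groups. Its change was 0.66 (SE 0.11, limma adjusted p = 0.0231), and without WT 2 its adjusted p was 0.1041. Both genes passed the minimum only through the SLE.yaa mice, so their being tested already required a difference. With every gene tested and no minimum, they passed at adjusted p of 0.0101 (Mki67) and 0.0401 (Top2a). Among cells of 2000 to 6000 UMIs, which leaves out most plasma cells, Mki67 lay under the minimum, as it did without either SLE.yaa mouse. Plasma-cell marker genes moved alongside: 12 of them summed to 813, 807, 8531 and 4577 ppm over all cells. Their part in the result was not tested.

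The other mitosis members were low. Of 17 under the minimum, 14 lay higher in both SLE.yaa mice than in both WT mice and 1 (Kif23) lay lower. Among all 7550 genes under the minimum, 37.3% were higher and 24% lower in this way. Birc5, which encodes survivin of the chromosomal passenger complex, stood at 0.251, 0.185, 1.003 and 1.72 ppm. Cdk1, the kinase that drives entry into mitosis, stood at 0.754, 0.554, 1.13 and 1.56. The ubiquitin-conjugating enzyme Ube2c, which helps destroy cyclins at the end of mitosis, stood at 1.06, 0.923, 2.01 and 4.40. In these 3 genes the SLE.yaa mice lay above the WT mice at levels where a level rests on few cells. Cenpa, the histone variant of the centromere, was tested and stood at 25.6, 26.6, 24.7 and 23.6 (change −0.08, limma adjusted p = 0.584). The spindle motor Kif23 stood at 9.30, 9.18, 6.54 and 8.99, lower in both SLE.yaa mice. Bub1, a kinase of the spindle checkpoint, was at 0 in both WT mice and at 0.218 and 0.240 in the SLE.yaa mice.

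None of the 9 replication members tested over all cells passed. Pcna, the clamp that holds DNA polymerase, stood at 50.1, 46.4, 44.6 and 64.2 ppm, with overlapping groups. Mcm6 stood at 29.8, 35.3, 49.0 and 35.7, with SLE.yaa 2 just above WT 2 (change 0.29, limma adjusted p = 0.273). Dut, which keeps uracil out of DNA, stood at 41.1, 45.4, 38.3 and 35.5 and was lower in both SLE.yaa mice without passing the test (limma adjusted p = 0.290). Of the 6 replication members under the minimum, 4 lay higher in both SLE.yaa mice. One of them was Rrm2, the regulated subunit of the enzyme that makes deoxynucleotides, at 1.06, 1.29, 3.40 and 3.20 ppm. Another was Tyms, which makes thymidylate, at 3.42, 2.91, 6.80 and 5.71. All 5 chromatin and tubulin genes were tested and none passed. Tubb5, a beta-tubulin, stood at 301, 331, 302 and 238 ppm. Hmgb2, a DNA-bending chromatin protein, stood at 184, 149, 171 and 263, with SLE.yaa 2 alone high. Tuba1b, an alpha-tubulin, stood at 118, 135, 94.2 and 124. Summed by role, the mitosis members came to 60.9, 59.6, 87.7 and 98.6 ppm, the replication members to 292, 309, 306 and 282, and the chromatin and tubulin genes to 639, 658, 601 and 666.

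**Figure D1:**
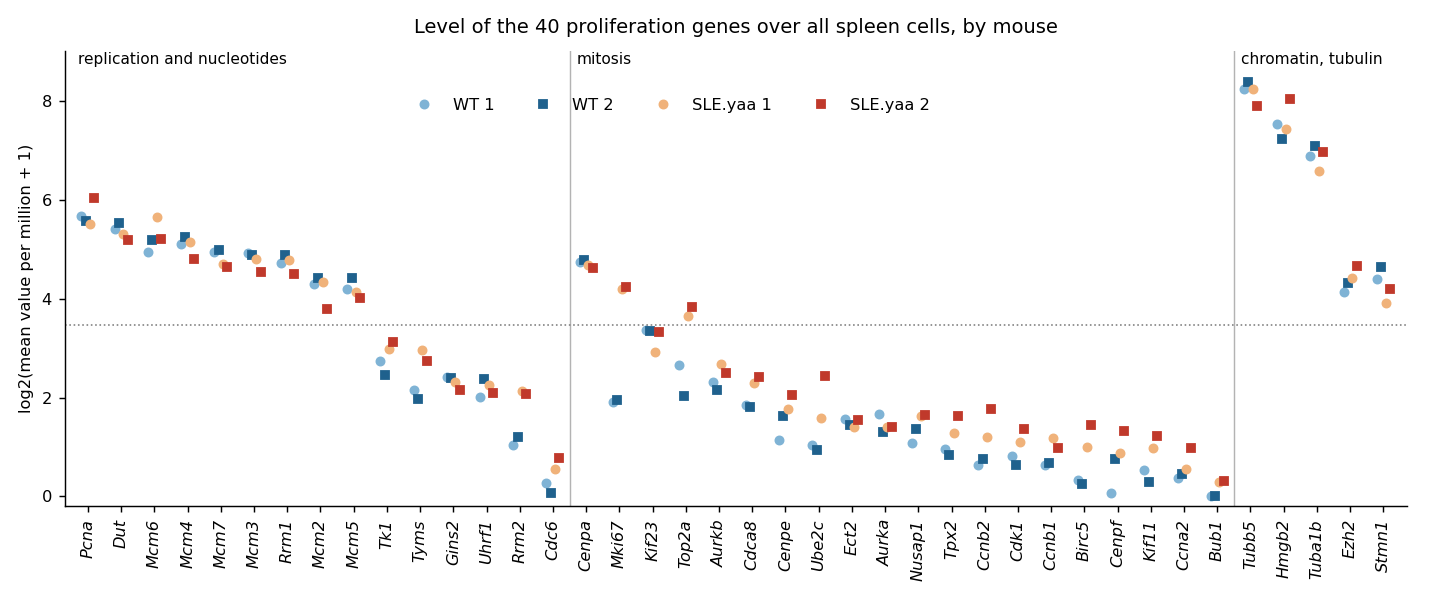
Level of the 40 members over all cells, as log2(mean level in ppm + 1), with 1 point per mouse and genes ordered by role and level. The dotted line marks the minimum of 10 ppm. The SLE.yaa points lie above the WT points in 16 of the 20 mitosis genes, Mki67 farthest apart at 17.2 and 17.9 against 2.77 and 2.86, while most replication, chromatin and tubulin genes overlap or lie close.

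The share of cells with 5 or more members above 0 was higher in the B cells and CD4 T cells of SLE.yaa mice than in those of WT mice. Shares were compared with edgeR's quasi-likelihood test on the number of cells, with 9 annotated types adjusted together, of which 2 (22.2%) were higher and 0 lower at an adjusted p under 0.05. In CD4 T cells the share was 18.8% (150 of 797 cells), 22.1% (184 of 834), 36.2% (230 of 635) and 34.9% (192 of 550). The exact (Clopper-Pearson) 95% intervals of the WT mice reached at most 25.0% and those of the SLE.yaa mice began at 30.9%, and these intervals cover counting error only. The change in CD4 T cells was 0.80 on the log2 scale (edgeR adjusted p = 0.0014). In B cells the share was 10.0% (314 of 3129), 11.8% (403 of 3403), 21.0% (517 of 2465) and 16.5% (405 of 2453), a log2 change of 0.78 (edgeR adjusted p = 0.0013). When cells were counted by a score above 0 in place of the members, the B-cell change was −0.24. Both calls were lost without WT 1 (adjusted p of 0.0566 for each) and without SLE.yaa 1 (0.0602 for B and 0.0538 for CD4 T cells).

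The median UMIs per B cell were 3218, 3389, 4778 and 4518, higher in both SLE.yaa mice, while those per CD4 T cell were 4003, 4407, 4292 and 3660, with overlapping groups. The median number of genes found was higher in both SLE.yaa mice in both types. It was 1417, 1513, 1847 and 1677 per B cell and 1578, 1663, 1905 and 1698 per CD4 T cell. The part of the number of genes found in these shares was not tested. Among cells of 3000 to 4500 UMIs, a window chosen after the data had been seen, the CD4 shares were 16.0%, 18.2%, 29.4% and 35.9% (log2 change 0.93, edgeR adjusted p = 0.0039). The B-cell shares in that window were 8.83%, 8.54%, 12.4% and 8.64%, with SLE.yaa 2 between the WT mice (0.28, edgeR adjusted p = 0.454). In the wider window of 2000 to 6000 UMIs the B-cell shares were 8.39%, 9.54%, 13.8% and 11.4%, and the difference passed (0.48, edgeR adjusted p = 0.0125). In each mouse, cells with 5 or more members were deeper than the others: their median was 5074, 5258, 6205 and 5709 UMIs, against 3335, 3476, 4385 and 3770.

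No other type passed. CD8 T cells had 27.2%, 32.9%, 43.6% and 36.1% (log2 change 0.40, edgeR adjusted p = 0.153), with both SLE.yaa mice above both WT mice. B cells with an interferon signature (B-ISG) had 8.47%, 9.76%, 17.0% and 16.0%, and early B cells had 2.67%, 5.33%, 6.00% and 7.65% (edgeR adjusted p = 0.205 for each). Natural killer (NK) cells had 21.0%, 28.2%, 30% and 13.04%, with the SLE.yaa mice at both ends. Cells annotated as dendritic cells (DC) had 24.7%, 16.2%, 16.2% and 20%. Monocytes and macrophages (Mac) had 5.87%, 8.28%, 7.27% and 7.61%, and neutrophils (PMN) had 4.00%, 2.16%, 4.17% and 2.21%. In these last 4 types the groups overlapped or touched.

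Much of the count of 5 came from genes that are also read outside division. Counted over the 35 members other than Hmgb2, Stmn1, Tuba1b, Tubb5 and Ezh2, the share of cells with 5 or more fell to 1.04%, 1.56%, 4.29% and 2.71% of all cells. With that count the CD4 T cells had a log2 change of 2.36 (edgeR adjusted p = 0.0007), B cells 1.37 and CD8 T cells 1.79 (edgeR adjusted p = 0.0056 for each). Neutrophils and Mac passed by this count too (edgeR adjusted p of 0.0340 and 0.0343), on 0, 0, 5 and 3 neutrophils and 0, 0, 3 and 11 cells of Mac. Cells with 3 or more of the 20 mitosis members made up 0.16%, 0.23%, 1.03% and 1.27% of all cells. Among CD4 T cells these were 2, 1, 13 and 12 cells, and among B cells 3, 7, 19 and 23 (edgeR adjusted p = 0.0014 for each, in a count added after the data had been seen). Over all types, the share with 5 or more of the 40 members was 12.3%, 15.2%, 20.7% and 15.7%, a difference of 4.49 percentage points (exact permutation test, two-sided, p = 0.333, the smallest that 2 against 2 mice can give). Without plasma cells the difference was 5.02 points. At a common composition of the 9 types with at least 20 cells in each mouse, which leaves out plasma cells, the share was 12.1%, 14.1%, 21.8% and 18.5%. That was a difference of 7.03 points (exact permutation test, p = 0.333).

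**Figure D2:**
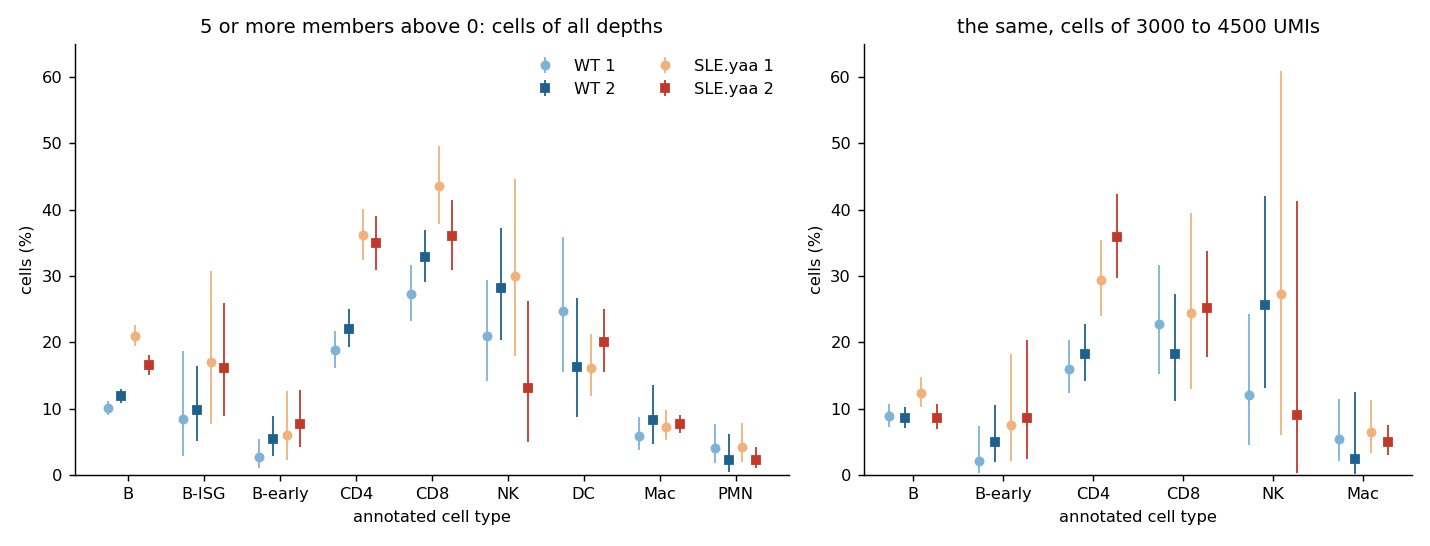
Share of cells with 5 or more of the 40 members above 0, in percent, for each annotated type and mouse, with bars for exact 95% intervals, in cells of all depths (left) and of 3000 to 4500 UMIs (right). Across all depths, both SLE.yaa points lie above both WT points in B cells (16.5% and 21.0% against 10.0% and 11.8%) and CD4 T cells (34.9% and 36.2% against 18.8% and 22.1%), and on the right the CD4 shares stay apart while those of B cells do not.

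Single cells with Mki67 above 0 were about as rare in the WT mice as each other (48 and 51 cells, 0.87% and 0.90%) and more common in the SLE.yaa mice (323 and 355 cells, 6.51% and 5.79%). Plasma cells supplied 293 of the 678 such cells of SLE.yaa mice (43.2%), B cells 126 (18.6%) and CD4 T cells 107 (15.8%). Among the 99 such cells of WT mice, 4 were plasma cells, 42 B cells and 23 CD4 T cells. With plasma cells left out, the shares were 0.86%, 0.84%, 3.68% and 3.68%.

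Plasma cells, the antibody-secreting end stage of B cells, were 12 and 11 cells in the WT mice and 340 and 287 in the SLE.yaa mice, too few in WT for a test. The annotation matched its markers: Jchain, the chain that joins IgM and IgA, was above 0 in 98.8% and 98.6% of plasma cells of SLE.yaa mice, and Sdc1, which encodes the surface marker CD138, in 85.6% and 82.2%. Mki67 was above 0 in 153 of 340 plasma cells of SLE.yaa 1 (45%, exact 95% interval 39.6 to 50.5%) and in 140 of 287 of SLE.yaa 2 (48.8%, 42.9 to 54.7%). The WT mice had 1 of 12 and 3 of 11. Top2a was above 0 in 6.76% and 6.62% of the same SLE.yaa plasma cells, and 5 or more members in 9.41% and 10.5%. Tubb5, Hmgb2 and Tuba1b, which feed that count, were above 0 in a smaller share of plasma cells than of B cells. Among SLE.yaa cells without Mki67, Tubb5 was above 0 in 25.4% of plasma cells and 69.1% of B cells. Rrm2 went the other way, at 6.89% and 0.63%. The values are adjusted for depth, and these plasma cells had a median of 10071.5 UMIs against 4621 in these B cells. The part of that adjustment in the shares was not tested. The SLE.yaa plasma cells were deep, with medians of 10022 and 10618 UMIs. Among cells of 8000 or more UMIs in SLE.yaa mice, Mki67 was above 0 in 258 of 503 plasma cells (51.3%), in 38 of 500 B cells (7.60%), in 6 of 41 CD4 T cells (14.6%, exact 95% interval 5.57 to 29.2%), in 7 of 114 CD8 T cells (6.14%, 2.50 to 12.2%) and in 6 of 87 neutrophils (6.90%, 2.57 to 14.4%). These cells pool both mice of a group, so the intervals cover counting error only and no spread between mice. At this depth the intervals of CD4 T cells, CD8 T cells and neutrophils overlapped. In WT mice, Mki67 was above 0 in 3 of 13 plasma cells (23.1%), 8 of 199 B cells (4.02%) and 3 of 35 CD4 T cells (8.57%). Of the WT cells at this depth, 2 of 103 CD8 T cells (1.94%) and 2 of 21 neutrophils (9.52%) had it. Among the SLE.yaa cells of that depth range, Top2a was above 0 in 7.36% of plasma cells and 7.80% of B cells. Tyms was above 0 in 13.1% and 3.40% of them.

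Within SLE.yaa plasma cells, those with Mki67 held few other mitosis genes. At least 2 of the other 19 mitosis members were above 0 in 5.88% and 7.86% of plasma cells with Mki67, against 3.21% and 3.40% of those without. In B cells of the same mice the figures were 15.0% and 19.7% with Mki67, against 2.66% and 3.23% without. In CD4 T cells they were 13.2% and 9.26%, against 4.98% and 7.46%. CD8 T cells with Mki67 had 25.0% and 4.35% (of 12 and 23 cells), against 2.87% and 3.81% without. DC had 5.88% and 43.5% (of 17 and 23 cells), against 4.53% and 6.74%. Mac had 0% and 10.0% (of 14 and 30 cells), against 1.31% and 1.58%. A low figure was thus not particular to plasma cells. B cells with Mki67 were also deeper than those without, at medians of 5783 and 6755 UMIs against 4765 and 4476.

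In CD4 T cells, Mki67 was above 0 in 15 of 797 cells (1.88%), 8 of 834 (0.96%), 53 of 635 (8.35%) and 54 of 550 (9.82%). Its log2 change of share was 2.66 (edgeR adjusted p = 0.0093). In CD8 T cells the shares were 0.45%, 0.88%, 4.12% and 6.80% (2.96, edgeR adjusted p = 0.0206), and in B cells 0.58%, 0.71%, 2.43% and 2.69% (1.99, edgeR adjusted p = 0.0043). Neutrophils had 0.50%, 1.44%, 2.31% and 2.94% at medians of 1640, 1547, 2369 and 2713 UMIs. Whether the annotated neutrophils include dividing precursors was not tested. Those neutrophils were shallower than the lymphocytes. The B-cell shares of the SLE.yaa mice lay near the neutrophil shares of the same mice, and the shares in CD4 and CD8 T cells lay above them. Among the pooled SLE.yaa cells of 8000 or more UMIs given above, the share in CD8 T cells was not above that in neutrophils. Among 9 types, 3 passed for Mki67 (33.3%), and without SLE.yaa 2 none did (adjusted p of 0.0877 in B cells, 0.0919 in CD4 and 0.0951 in CD8 T cells). Among cells of 3000 to 4500 UMIs, the CD4 shares were 0.86%, 1.23%, 9.41% and 11.4%, and the B-cell shares 0.45%, 0.37%, 1.64% and 1.38% (log2 change 1.86, edgeR adjusted p = 0.0041). The plasma-cell marker Jchain was also above 0 in 0.9%, 0.5%, 22.5% and 9.8% of CD4 T cells. In B cells it was above 0 in 1.0%, 1.0%, 21.5% and 10.6%, and in CD8 T cells in 0.4%, 0.7%, 18.6% and 8.9%. In neutrophils it was above 0 in 1.5%, 1.4%, 15.3% and 11.8%. The plasma-cell markers Xbp1, Mzb1 and Sdc1 were likewise higher in CD4 T cells of both SLE.yaa mice. In neutrophils Sdc1 was higher too, but Xbp1 was above 0 in 28.0%, 27.3%, 30.1% and 16.9%, and Mzb1 in 5.0%, 6.5%, 9.7% and 4.2%. The B-cell marker Cd79a was above 0 in 82.0%, 88.5%, 66.2% and 49.8% of neutrophils. The part of RNA from other cells in the Mki67 shares was not tested. Top2a was above 0 in 1.88%, 1.92%, 10.6% and 15.1% of CD4 T cells (log2 change 2.74, edgeR adjusted p = 0.0108), against 0.50%, 0%, 0.46% and 1.47% of neutrophils. It was the only type of 9 (11.1%) to pass for Top2a in that test.

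**Figure D3:**
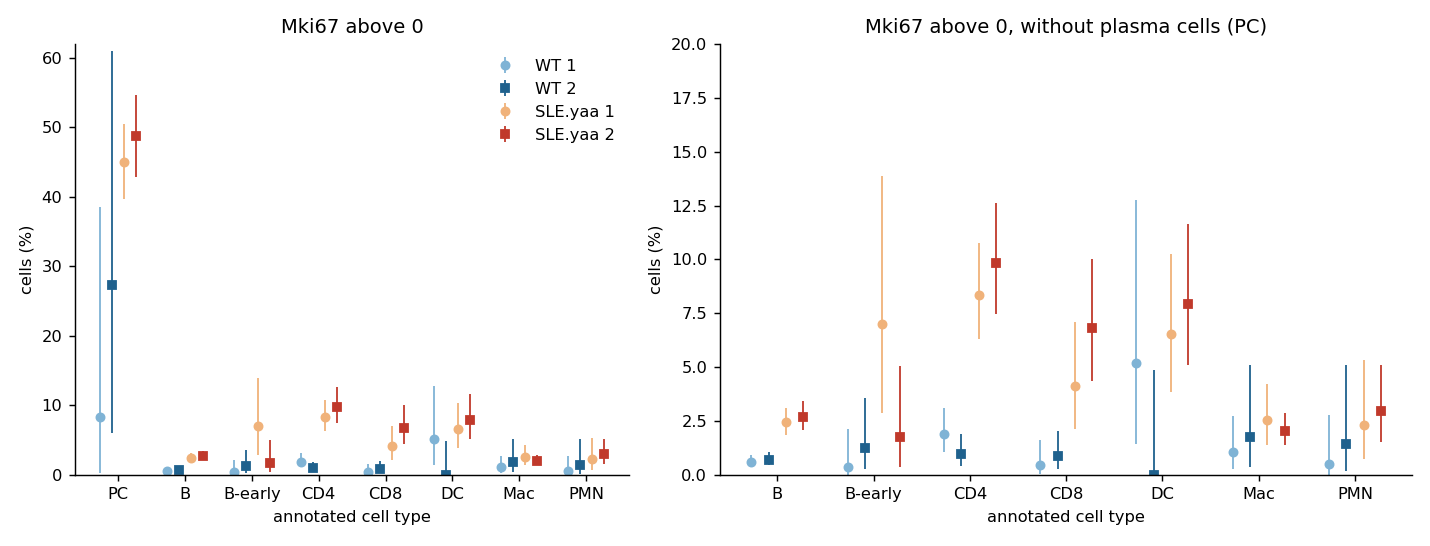
Share of cells with Mki67 above 0, in percent, by annotated type and mouse, with bars for exact 95% intervals, with plasma cells (PC, left) and without them on a wider scale (right). Plasma cells of the SLE.yaa mice stand at 45% and 48.8%, CD4 T cells at 8.35% and 9.82%, and B cells at 2.43% and 2.69%, beside neutrophils at 2.31% and 2.94%.

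CD4 T cells held the most changed members of any type: of 18 tested, 6 rose and 3 fell. Changes were common in these cells, with 2369 of 8415 genes called (28.2%), 15.9% higher (1336) and 12.3% lower (1033), a split of 2056 and 485 without scaling between mice. The members' median change was 0.19, against −0.01 over all genes tested. The T-cell markers rose from sums of 3875 and 3561 to 5521 and 5617 ppm and the B-cell markers stood lower, at 499, 478, 240 and 297. The plasma-cell markers stood at 182, 167, 485 and 376. The part of these other cells' RNA in the members' changes was not tested.

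Among the 6 helicase subunits Mcm2 to Mcm7, which act as 1 ring, 1 rose, 1 fell and 4 did not pass. Mcm6, whose E2F letters are printed above, stood at 34.2, 43.2, 137 and 136 ppm in CD4 T cells, so that the SLE.yaa mice nearly coincided, far above the WT mice. Its change was 1.60 (SE 0.14, limma adjusted p under 0.0001 as computed, and at most 0.0003 without any 1 mouse). Mcm6 was above 0 in 11.9%, 13.5%, 39.1% and 37.8% of CD4 T cells. Mcm4 went the other way, at 49.3, 54.5, 39.98 and 32.5 ppm (change −0.42, SE 0.14, limma adjusted p = 0.0388), and its call was lost without WT 1, WT 2 or SLE.yaa 2 and without scaling between mice (−0.24, 0.3312). Mcm2 stood at 24.1, 32.8, 22.2 and 18.5, lower in both SLE.yaa mice (−0.33, limma adjusted p = 0.135). Mcm3 stood at 33.9, 27.7, 34.1 and 25.1, with overlapping groups. Mcm5 stood at 12.6, 13.2, 12.9 and 17.6, and Mcm7 at 31.4, 33.4, 25.7 and 30.3. Their changes were 0.13 and −0.16 (limma adjusted p of 0.562 and 0.449).

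Tyms stood at 6.99, 5.68, 17.0 and 15.0 ppm in CD4 T cells, higher in both SLE.yaa mice (change 0.67, SE 0.15, limma adjusted p = 0.0029; 0.0531 without WT 2). It entered the test through the SLE.yaa mice alone, and so did the mitosis genes Mki67 and Top2a. With no minimum, all 3 still passed, at adjusted p of 0.0170, 0.0041 and 0.0008. Pcna stood at 60.1, 60.2, 51.8 and 72.6, with the SLE.yaa mice on both sides of the WT mice. Dut stood at 54.5, 53.6, 64.7 and 80.0, higher in both SLE.yaa mice without passing (0.36, limma adjusted p = 0.070).

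Top2a stood at 5.94, 5.04, 30.9 and 48.8 ppm in CD4 T cells, with no overlap. Its change of 1.66 (SE 0.17) was the largest among the members tested, over all cells and each type. Mki67 stood at 6.64, 3.15, 19.1 and 26.8 (1.15, SE 0.17, limma adjusted p = 0.0001). Cenpa stood at 27.3, 26.8, 37.5 and 32.5 and did not pass (0.28, limma adjusted p = 0.166). Of the 17 mitosis members under the minimum, 8 lay higher in both SLE.yaa mice and 1 (Aurka) lower, where 24.7% and 21.3% of all 6378 genes under the minimum did so. Among the 8, the spindle assembly factor Tpx2 stood at 0.349, 0.631, 3.13 and 3.96, and Cdk1 at 0.349, 0.946, 3.48 and 2.20.

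The chromatin and tubulin genes split in CD4 T cells, with 2 higher, 2 lower and 1 that did not pass. Hmgb2 stood at 181, 177, 237 and 277 ppm (0.49, SE 0.12, limma adjusted p = 0.0071). Ezh2, the enzyme that methylates histone H3 for silencing, stood at 21.7, 26.5, 33.7 and 55.0 (0.65, SE 0.18, limma adjusted p = 0.0132), with SLE.yaa 2 highest; without that mouse its adjusted p was 0.1463. Stmn1, which takes microtubules apart, stood at 51.4, 45.7, 13.2 and 25.1, so that both SLE.yaa mice lay well below the WT mice (−1.04, SE 0.18, limma adjusted p = 0.0005). Tuba1b stood at 163, 166, 124 and 120 (−0.40, SE 0.12, limma adjusted p = 0.0215; 0.1544 without WT 1, 0.2067 without WT 2 and 0.3169 without scaling between mice). Tubb5 stood at 425, 433, 411 and 334 and did not pass (−0.21, limma adjusted p = 0.2501). Hmgb2 missed the threshold without WT 1 (0.0501) and without WT 2 (0.0806), and Ezh2 also missed it without WT 1 (0.0528).

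**Figure D4:**
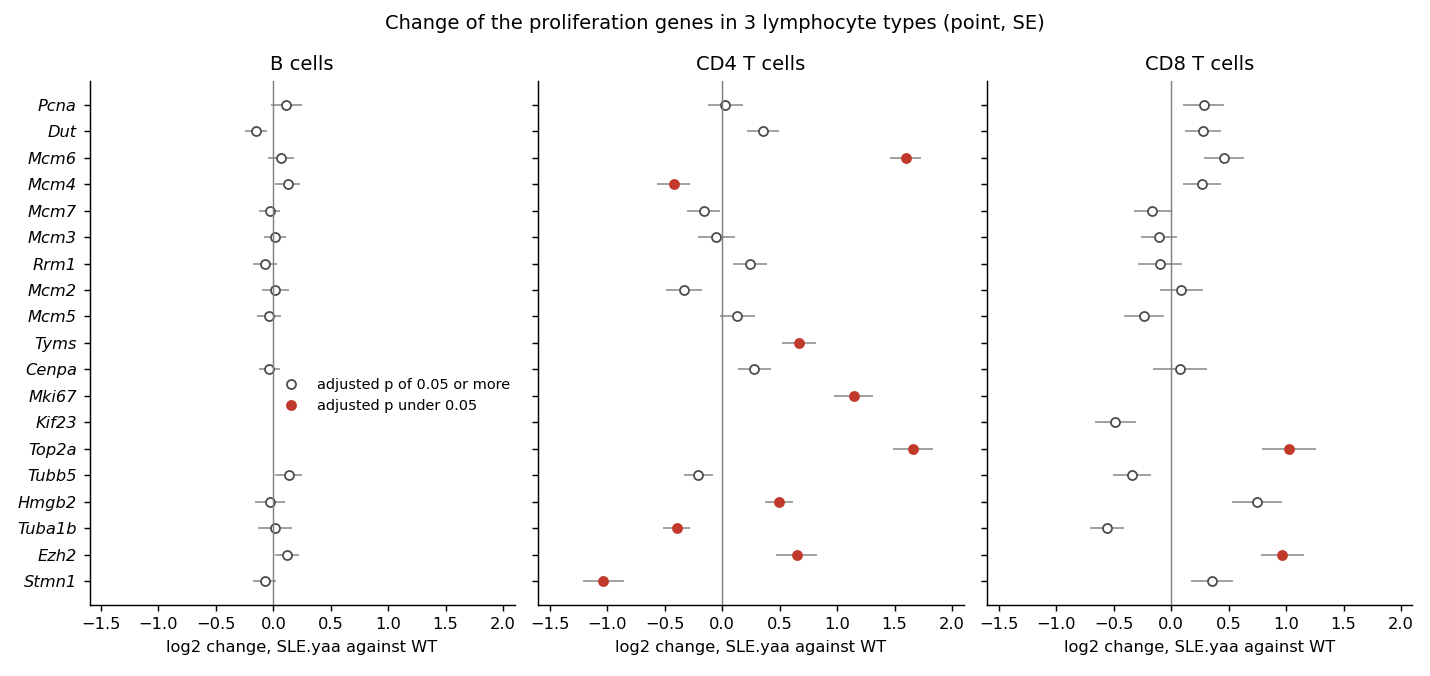
Change of each member between SLE.yaa and WT mice, as a difference of log2(value + 10) with a bar of 1 SE to each side, in B cells, CD4 and CD8 T cells, for members tested there; filled points have an adjusted p under 0.05. Mcm6 and Top2a stand out in CD4 T cells at 1.60 and 1.66, Stmn1 lies at −1.04 there and at 0.36 in CD8 T cells, and the B-cell changes lie between −0.15 and 0.13.

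Genes of the same pathways outside the 40 were followed in CD4 T cells as fixed lists, and their counts are to be read against the 28.2% of all genes called in these cells. Of 35 other replication genes, 17 were tested, 3 rose and 1 fell, a smaller share than over all genes. Lig1, the ligase that joins new DNA strands, stood at 8.04, 13.2, 19.1 and 25.5 ppm (0.65, limma adjusted p = 0.0087), Rpa2, which binds single-stranded DNA, rose by 0.52 and Slbp, which binds histone messages, by 0.41. The histone chaperone Nasp fell by 0.46. Of 44 other mitosis genes, 12 were tested, 5 rose and 1 fell. Cdc25b, a phosphatase that activates cyclin-dependent kinases, stood at 31.8, 32.2, 104 and 81.3 (1.28, limma adjusted p under 0.0001 as computed). The spindle motor Kif15 stood at 0.699, 1.26, 11.5 and 15.8 (1.10) and entered the test only through the SLE.yaa mice, and Racgap1, a gene of cytokinesis, stood at 8.39, 6.31, 22.2 and 20.2 (0.85) and entered in the same way. The condensin subunit Smc4 fell, at 358, 342, 240 and 267 (−0.45, limma adjusted p = 0.0099). Cks2 (0.58) and Pttg1 (0.38), which encodes securin, rose as well.

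Of 15 cyclins, kinases and factors of G1, 7 were tested in CD4 T cells, 2 rose and 2 fell. Cdk6, a kinase that frees E2F, rose from 13.6 and 13.9 to 64.7 and 89.3 ppm (1.86). E2f2 rose by 0.78. Cdk2, the kinase of S-phase entry, fell from 23.4 and 22.7 to 12.2 and 11.9 (−0.59), and Myc, a growth factor-induced regulator, stood at 56.3, 70.0, 39.6 and 26.8 (−0.77, limma adjusted p = 0.0024). Of 21 inhibitors and quiescence genes, 16 were tested, 1 rose and 4 fell, a share close to the 28.2% of all genes. Cdkn2c, an inhibitor of Cdk4 and Cdk6, stood at 6.99, 3.15, 30.9 and 38.7 (1.58) and entered the test through the SLE.yaa mice alone. Cdkn2d, an inhibitor of the same family, fell by 0.83. Foxo1 (−0.95), Foxo3 (−0.69) and Klf2 (−0.36), factors of resting T cells, were lower. Of the 10 markers listed for germinal centre B cells, 3 were tested in CD4 T cells, where the B-cell markers stood lower in SLE.yaa mice. These 3, Bcl6, S1pr2 and Fas, rose, and which cells their RNA came from was not tested. Of the other 7, all under the minimum, 1 (Mef2b) was higher in both SLE.yaa mice and none lower.

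In CD8 T cells 2 of 17 members tested rose and none fell by the same test, where 3.14% of 8281 genes changed (2.49% higher and 0.652% lower, or 206 and 54, against 339 and 28 without scaling between mice), and 6 members had an unadjusted p under 0.05. Ezh2 stood at 16.5, 14.2, 32.9 and 47.3 ppm (0.97, SE 0.19, limma adjusted p = 0.0202). Top2a stood at 6.60, 1.68, 14.7 and 22.6 (1.03, SE 0.23, limma adjusted p = 0.0417) and entered the test through the SLE.yaa mice alone. Both calls were lost without WT 1 (adjusted p of 0.0822 and 0.1008) or WT 2 (0.2374 and 0.5827), and no member passed with all genes tested and no minimum. Mki67, at 1.10, 2.51, 9.09 and 20.4, was under the minimum. Mcm6 stood at 46.7, 63.3, 85.3 and 72.1, higher in both SLE.yaa mice without passing (0.46, limma adjusted p = 0.222), and Stmn1 at 18.1, 21.4, 23.8 and 32.8 (0.36, limma adjusted p = 0.377). Of the 17 mitosis members under the minimum, 10 lay higher in both SLE.yaa mice and none lower, against 15.6% and 18.9% of all genes under the minimum. Among the related genes, Rpa2 rose by 1.01 and E2f2 by 1.07, and Smc4 fell by 0.63.

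Taking all B-cell types without plasma cells, none of the 15 members tested passed with limma, none had an unadjusted p under 0.05, and 3.52% of 7932 genes changed (208 higher and 71 lower, against 1050 and 34 without scaling between mice). The members' median change was 0.02, against −0.01 over all genes. Mcm6 stood at 27.1, 29.0, 34.0 and 26.1 ppm, with SLE.yaa 2 below both WT mice. Tubb5 stood at 276, 296, 343 and 289, and Hmgb2 at 124, 98.3, 96.8 and 120, with overlapping groups. Under the minimum, Mki67 stood at 1.83, 2.27, 6.60 and 7.37 and Top2a at 5.32, 2.56, 8.58 and 8.34. With no minimum, Mki67 passed in B cells (limma adjusted p = 0.0483). Of the 19 mitosis members under the minimum, 11 lay higher in both SLE.yaa mice and 1 (Cdk1) lower, against 26.1% and 19.3% of all genes there. None of the related genes passed in B cells. Fitted on their own, the annotated B cells (15 members tested), B-ISG (16) and early B cells (15) also had no member past the threshold with limma, where 4.1%, 0.88% and 0.424% of genes changed. The plasma-cell markers stood at 701, 687, 2911 and 1577 ppm in B cells, and their part in these values was not tested.

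Whether the changes differed between types was tested on differences within each mouse. The change of Mcm6 from WT to SLE.yaa mice was larger in CD4 T cells than in B cells by 1.53 (SE 0.13, limma adjusted p under 0.0001 as computed) and larger than in CD8 T cells by 1.14 (SE 0.16, limma adjusted p = 0.0029). Stmn1 moved the other way: its change in CD4 T cells was lower than in B cells, a difference of −0.96 (SE 0.18), and lower than in CD8 T cells, a difference of −1.39 (SE 0.18). In all, 10 of 18 members differed between CD4 T cells and B cells, where 28.9% of all genes did. Of these 10, Mki67, Top2a and Tyms entered the test through CD4 T cells of the SLE.yaa mice, so their being tested already required a high level there. Between CD4 and CD8 T cells 3 of 19 differed, where 9.25% of all genes did. Between CD8 T cells and B cells 1 of 17 (Ezh2) differed, where 3.32% did.

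Myeloid cells, NK cells and neutrophils showed 1 called member. In cells annotated DC, Mcm5 stood at 39.2, 34.8, 11.7 and 11.9 ppm, lower in both SLE.yaa mice (−1.11, SE 0.26, limma adjusted p = 0.0261), and 19 members were tested where 8.38% of genes were higher (740) and 3.77% lower (333), or 594 and 493 when scaled to the sum alone. The call was lost without SLE.yaa 1 (0.2060), without SLE.yaa 2 (0.1797) and among cells of 2000 to 6000 UMIs (−0.43, 0.8111). These cells differed in kind between the groups: macrophage markers summed to 796, 1646, 15660 and 12326 ppm, dendritic-cell markers to 1206, 1420, 661 and 818, and red-cell markers to 12.1, 13.9, 1474 and 2608. The part of these cells in the result was not tested. In the same cells Ccnd1, a cyclin of G1, fell by 1.51, and its relative Ccnd2 rose by 1.72. None of 14 members passed in Mac (5.69% of genes changed, 309 higher and 140 lower, or 167 and 258 when scaled to the sum alone), none of 16 in NK cells (0.0846%) and none of 7 in neutrophils (1.80%), with limma, and 3 members in Mac had an unadjusted p under 0.05. In Mac, the quiescence genes Cdkn1b (0.84), Btg2 (0.53) and Klf2 (0.72) rose, and Racgap1 fell by 0.82. Kif23 stood at 22.6, 25.1, 14.4 and 16.8 there (−0.40, limma adjusted p = 0.198).

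The deposited S.Score and G2M.Score rate each cell on gene lists of the authors, whose genes are not given in the sources used here and may hold many of the 40. The order of G2M.Score did not follow the members. In B cells the mean G2M.Score was −0.266, −0.281, −0.389 and −0.369, lower in both SLE.yaa mice (difference −0.105, SE 0.027, limma adjusted p = 0.0056), and in B-ISG the difference was −0.111 (limma adjusted p = 0.0056). These were the 2 of 9 types (22.2%) that passed for this score. The S.Score was lower in B-ISG (−0.0185), DC (−0.0243) and PMN (−0.0223) and higher in Mac (0.0202), 4 of 9 types (44.4%). CD4 T cells passed for neither score, with differences of 0.0010 (S.Score) and 0.0302 (G2M.Score). Across the cells of a mouse, G2M.Score fell as depth rose, with Pearson's r of −0.894, −0.906, −0.857 and −0.814 between score and UMIs over 5497, 5697, 4961 and 6130 cells, which share their library. With the number of members per cell r was −0.336, −0.351, −0.274 and −0.274. Cells with 5 or more members had a median G2M.Score of −0.357, −0.373, −0.424 and −0.380, below the −0.240, −0.250, −0.314 and −0.259 of the other cells. For S.Score, r with the number of members was weakly positive, at 0.019, 0.008, 0.125 and 0.047. The median S.Score was −0.0528, −0.0610, −0.0662 and −0.0670 in cells with 5 or more members. In the other cells it was lower, at −0.0595, −0.0625, −0.0824 and −0.0749.

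Antigen receptor sequences of the same cells gave a readout that the choice of genes did not use. Among B cells, 5 or more members were above 0 in 8.48%, 10.2%, 20.7% and 15.9% of cells with an IgM or IgD heavy chain. Cells with a class-switched heavy chain were few, with 5 of 14 and 3 of 6 in the WT mice, 10 of 51 (19.6%, exact 95% interval 9.82 to 33.1%) in SLE.yaa 1 and 23 of 79 (29.1%, 19.4 to 40.4%) in SLE.yaa 2. Switched minus unswitched cells differed by −1.12 and 13.2 percentage points in the SLE.yaa mice, opposite in sign. Mki67 was above 0 in 6 of 51 and 16 of 79 switched B cells of the SLE.yaa mice (11.8% and 20.3%), against 2.29% and 1.96% of IgM or IgD cells, and in 1 of 14 and 0 of 6 switched cells of the WT mice. Switched B cells of SLE.yaa mice were deeper, at medians of 6411 and 7935 UMIs against 4834 and 4538. The part of depth in this difference was not tested. In SLE.yaa plasma cells, Mki67 was above 0 in 37 of 96 and 22 of 49 IgM or IgD cells (38.5% and 44.9%) and in 114 of 235 and 113 of 230 switched cells (48.5% and 49.1%), and 5 or more members in 9.38% and 10.2% against 9.36% and 10.9%.

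T cells of expanded clones, with 2 or more cells sharing a receptor in a mouse, were compared with cells of single-cell clones. In CD4 T cells the expanded minus single difference in the share with 5 or more members was 14.3, 1.78, 7.64 and −6.05 percentage points, with a mean of 4.41 (SD 8.64, n = 4 mice, exact sign-flip permutation test, two-sided, p = 0.375, where 0.125 is the smallest possible). Expanded CD4 cells numbered 24, 8, 173 and 115. Mki67 was above 0 in 5 of 24 (20.8%), 0 of 8, 18 of 173 (10.4%) and 14 of 115 (12.2%) expanded CD4 T cells, against 1.43%, 0.995%, 7.20% and 9.27% of single ones. In CD8 T cells the differences were 7.03, 16.0, −1.52 and −3.21 points (mean 4.57, SD 8.82, n = 4, exact p = 0.5), with 3, 2, 32 and 37 expanded cells. The sign differed between mice in both types. With expanded clones taken as 3 or more cells, WT 2 had no such cell, and the CD4 differences of the other mice were 19.4, 13.7 and 1.06 points (mean 11.4, exact p = 0.25, the smallest possible with 3 mice), all positive, on 13, 94 and 56 expanded cells. The CD8 differences were then 73.7, 10.3 and −2.71 points (mean 27.1, exact p = 0.5), on 1, 9 and 16 expanded cells.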

How the data were processed

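The data were single-cell libraries of 4 mouse spleens with paired B- and T-cell receptor libraries. Cell Ranger 5.0.0, Seurat 4.0.0 and the GRCm38 build are named in the submitters' processing notes. The deposited expression values are the natural log of 1 plus a depth-adjusted number of molecules, whole within 1.64e-11 in every entry tested by back-transformation, so the exact counts are not used here and no count model was fitted on genes. For each cell, the authors deposited UMI counts, genes found, the percent of UMIs from mitochondria (at most 5.00), the S and G2M score, a type and a mouse, and no cell holds over 2999 genes. No doublet caller was run, and none is named in the sources used here. The receptor tables, deposited by the authors as counts of reads and UMIs with a fraction per chain, were joined by barcode and mouse. Other columns, such as age, were used as the authors deposited them.

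Values were back-transformed, averaged per mouse and type, scaled to 1000000, normalised by TMM and compared with limma 3.58.1 (trend) on log2(value + 10), for genes of 10 or more in 2 mice. 15 rows without a name (0.0440% of values) were left out. Cells with 5 or more members were compared by edgeR 4.0.16 over 9 types with at least 20 cells in each mouse and 3 such cells, with the log of the cells as offset. Since the values are not raw UMIs, cells could not be thinned to 1 depth, and windows of UMIs were used. Both tests were run on simulated data with a spread between mice that was set, not taken from these mice. Such data cannot show how the p-values hold here. Replicates are the mice that the labels name; p-values rest on 2 mice a group. The 40 members, the related lists and the marker lists were chosen with earlier results of these data known. Named are members past the threshold and the 3 highest of each role, and of related lists at most 5 genes past it; a few members under the minimum were chosen after their values were seen. Alternatives were other pseudocounts, filters, scalings, depth windows, numbers of members, tests and leaving out each mouse. Promoter sequences come from RefSeq (GRCm38.p6).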

Additional observations from a re-analysis of the deposited data

Results flagged for a closer look

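The change from WT to SLE.yaa mice differed between cell types for 14 pairs of a member and 2 types, by limma on differences of log2(value + 10) within mice, adjusted over all genes. The comparison was added after the data had been seen, and pairs that share CD4 T cells share their samples. Between CD4 T cells and B cells, the difference was positive for Mcm6 (1.53), Top2a (1.25), Mki67 (0.65), Tyms (0.55), Ezh2 (0.53), Hmgb2 (0.52) and Dut (0.51). It was negative for Stmn1 (−0.96), Mcm4 (−0.55) and Tubb5 (−0.34). Between CD4 and CD8 T cells, it was 1.14 for Mcm6, −1.39 for Stmn1 and −0.69 for Mcm4. Between CD8 T cells and B cells it was 0.85 for Ezh2. Mki67, Top2a and Tyms entered these tests through CD4 T cells of the SLE.yaa mice. The share of genes so called was 28.9%, 9.25% and 3.32% in the same order of pairs.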

How the results depend on the processing

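No paired analysis was possible because the replicate numbers were given by accession and link no WT mouse to an SLE.yaa mouse. With 2 mice a group, every call rests on few degrees of freedom, the depth-adjusted values allow no thinning, and low mitosis genes rest on few cells. The number of types with a higher share of cells with 5 or more members was 2 as reported (B and CD4 T cells). It was 1 with 3 or more members (B cells), where the CD4 call was lost (edgeR adjusted p = 0.072). It was 1 in cells of 3000 to 4500 UMIs (CD4 T cells). With a score above 0 it was 1 (CD8 T cells, edgeR adjusted p = 0.041), which did not pass as reported, and neither B nor CD4 T cells passed. It was 0 with limma on the share and 5 without the chromatin and tubulin genes (B, CD4, CD8, Mac and PMN). In cells of 2000 to 6000 UMIs, 1 type (PMN) was lower, against 0 as reported. Log2 changes of share turned sign with a score above 0 (B −0.24, B-ISG −0.48, NK 0.20), at 3000 to 4500 UMIs (B-ISG −0.43, DC 1.18, NK 0.011), with 3 or more members (DC 0.13, Mac −0.044, PMN 0.44), with 8 or more (NK 1.20, PMN 3.74), with 3 or more mitosis members (DC 2.17, PMN 4.02) and without the 5 chromatin and tubulin genes (NK 0.99, PMN 4.72). With a score above 0, the pooled difference was −2.23 points and −0.41 at a common composition. A planned count of cells with a score above 0.2 was not run, since 0 cells reach it. S.Score passed in 2 types at 2000 to 6000 UMIs and in 0 by medians (4 as reported). In cells of 2000 to 6000 UMIs, 1 member was higher over all cells, 7 higher and 2 lower in CD8 T cells, and 0 lower in the other types, with 741 genes called in CD8 T cells and 136 in Mac. With no filter, 1 member was higher in B cells, 10 in CD4 and 0 in CD8 T cells and 0 lower in other types, with 116 genes called in B cells, 19 in CD8 T cells and 83 in Mac. With no scaling, 1 member was higher in B cells and 4 in CD8 T cells, 1 was lower in CD4 T cells, 1539 genes were called over all cells and 1084 in B cells, and over all cells Dut (0.00032), Tuba1b (0.0050) and Cenpa (0.083) turned sign. Scaled to the sum alone, 1 member was lower in CD8 T cells and 2 in other types; with a pseudocount of 1, 1 was higher in CD8 T cells. The CD8 clone difference was −0.12 points with 8 or more members, and the clone differences were 11.4 points in CD4 and 27.1 in CD8 T cells for clones of 3 or more cells. The causes were not tested. Leaving out each mouse gave ranges of 0 to 2 types for the share, 0 to 4 for Mki67, 0 to 5 for either score, 2.02 to 6.96 points pooled and 5.40 to 8.66 at a common composition. Members higher ranged from 1 to 2 and lower from 0 to 1 over all cells (464 to 1775 genes called), 0 to 0 in B cells (136 to 729), 2 to 4 and 1 to 4 in CD4 T cells (1400 to 2039), 0 to 5 and 0 to 2 in CD8 T cells (47 to 1755), 0 to 4 and 0 to 1 in Mac (99 to 1643), and 0 to 2 and 0 to 3 in the other types. Clone differences ranged from 1.13 to 7.90 points in CD4 and 0.77 to 7.16 in CD8 T cells. Log2 changes of share that turned sign ranged from −0.44 to 0.16 in DC, −0.15 to 0.35 in Mac, −0.91 to 0.29 in NK and −0.54 to 0.42 in PMN, and the change of Pcna over all cells from −0.090 to 0.35. Where 1 mouse was left, it was assumed to vary like the other group.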
